A study of Mus musculus with 12 samples.

Results

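Adding N-acetylcysteine (NAC) to mouse CD8 T cells treated with genipin was examined by setting the 3 libraries titled genipin+NAC treatment against the 3 titled genipin treatment, 6 of the 12 libraries in the series, across all 13636 expressed genes. All 12 libraries came from Pmel-1 CD8 T cells labelled Ucp2 wildtype, which carry a transgenic T cell receptor for a peptide of the melanoma antigen gp100. Per the labels, the cells were stimulated with that peptide or with antibodies to CD3 and CD28, without saying which was used for a given library, and expanded for 4 days in 10 ng/ml IL-2. The groups, each of 3 libraries, were genipin with NAC, genipin alone, NAC alone and the vehicle, which was culture medium. No doses are given in the labels, and all cells share the transgenic receptor, the activation and the IL-2. Nothing in the labels states that replicates are different mice or cultures. The p-values therefore reflect library-to-library spread alone, and that spread may be technical.

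Genipin is a plant iridoid that crosslinks amino groups of proteins and is used as an inhibitor of UCP2, a carrier of the inner mitochondrial membrane. NAC is a cysteine donor that feeds glutathione synthesis, reduces disulfides and binds metal ions. Activated CD8 T cells divide in response to IL-2, take up much glucose, and arm themselves with granzymes, perforin and chemokines. Hypoxia-inducible factors (HIF) are held low by oxygen-, iron- and 2-oxoglutarate-dependent hydroxylases and switch on glycolysis when those enzymes are slow, which also happens in activated T cells at normal oxygen.

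The libraries held 23354971 to 31098648 expected counts with genipin and NAC, and 22298685 to 27308800 with genipin. Replicates differed little in all groups, but genipin+NAC replicate 1 stood apart from its 2 partners. Its counts differed from theirs with a chi-square per degree of freedom of 7.23 and 8.29, against 2.09 between replicates 2 and 3 and 2.23 to 3.00 between the genipin libraries. Leaving it out gave 9350 called genes in place of 9446. CD8 T cell markers summed to 4420 to 4480 CPM (counts scaled by library total) with genipin and NAC and 3710 to 3800 CPM with genipin, with 5 of 7 members higher and none lower. All 3 tested markers of CD4 and regulatory T cells were higher too, and their list summed to 102 to 107 CPM with genipin and NAC and 73.6 to 76.6 CPM with genipin, with Cd4 itself at 3.14, 2.57 and 2.22 CPM in genipin+NAC libraries, against 0.155, 0.625 and 0.292 CPM in genipin libraries. Its log2 fold change was 2.91, 3.51 without genipin replicate 2 and 2.26 with effective length offsets. Of the gamma-delta T cell markers, 1 of 5 was higher and 4 were lower, and the list summed to 50.7 to 53.3 CPM with genipin and NAC and 82.3 to 85.6 CPM with genipin. No count was seen in any of the 6 libraries (a limit of 3 counts each) for defining genes of other cells: Ms4a1, Pax5 and Fcrla of B cells, Fcgr1, C1qb and C1qc of macrophages, S100a8, Csf3r and Elane of neutrophils, Klra8 and Klra4 of NK cells, Siglech of plasmacytoid dendritic cells, Col3a1 and Cdh5 of stroma, and Pf4 and Ppbp of platelets. Of the detected stromal markers, Epcam and Col1a2 were higher and Pecam1 was lower (1.81 ± 0.14, 1.42 ± 0.34 and -0.37 ± 0.04), and their list summed to 63.6 to 66.7 CPM with genipin and NAC and 75.5 to 78.4 CPM with genipin. Itga2b, of platelets, was higher (1.38 ± 0.28), in a list that summed to 2.11 to 2.53 CPM with genipin and NAC and 0.773 to 1.31 CPM with genipin. The part of other cell types in the results was not tested.

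The change was broad. At an adjusted p under 0.05, 9446 of 13636 genes were called, which is 69.3% of genes, with 4769 (35.0%) higher and 4677 (34.3%) lower in genipin+NAC libraries than in genipin libraries. The median log2 fold change over all genes was 0.01, and the median size was 0.36. Small steady differences pass the test at this spread, so counts of changes of at least 2-fold are given too: 1995 genes, 14.6% of those tested, with 1438 (10.5%) higher and 557 (4.08%) lower. The list counts below are read against these shares. In bulk RNA, fewer cells of a type and less RNA per cell cannot be told apart.

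**Figure D1:**
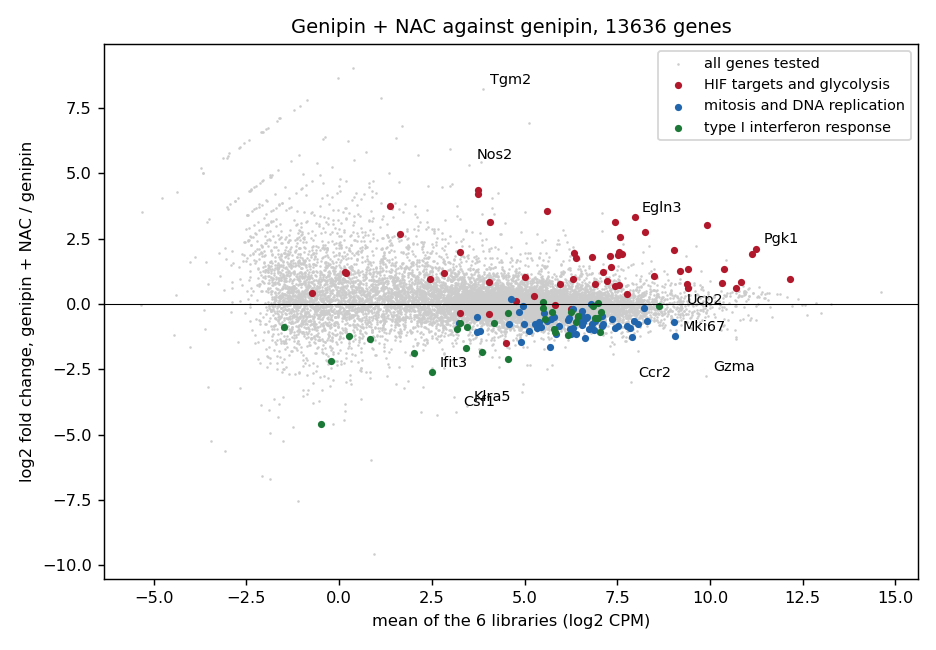
Each point is 1 of the 13636 genes, with the mean over the 6 libraries (log2 CPM) on the x axis and the log2 fold change of genipin + NAC over genipin on the y axis. Members of the HIF and glycolysis lists (red) lie mostly above 0, while mitosis and DNA replication (blue) and type I interferon genes (green) lie mostly below.

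Ucp2 itself, the carrier that genipin is used to inhibit, changed little. It had 505, 562 and 563 CPM in genipin+NAC libraries, against 622, 618 and 632 CPM in genipin libraries. The groups did not overlap, which was true of 70.3% of genes, and Ucp2 was slightly lower with NAC added (log2 fold change -0.20 ± 0.03, adjusted p = 2.73e-05). Its log2 fold change against vehicle was -0.47 with both compounds, -0.27 with genipin and -0.64 with NAC. The gene lies on chromosome 7 of mm10, from 100493337 to 100502020.

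The largest rises were in genes that genipin-treated cells barely expressed. Tgm2, a transglutaminase that crosslinks proteins, had 30, 29.8 and 28.1 CPM in genipin+NAC libraries, against 0.232, 0 and 0.0365 CPM in genipin libraries. The summed CPM differed 310-fold, with a 95% counting interval of 150 to 772, and Tgm2 had 19.3, 18.7 and 18.8 CPM in NAC libraries and 3.72, 3.96 and 4.25 CPM in vehicle libraries. Tgm2 was therefore far lower with genipin than in any other group, and with NAC added it stood above vehicle, by a log2 fold change of 2.87.

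St6gal1, which adds sialic acid to N-glycans, had 15.4, 16.2 and 15.5 CPM in genipin+NAC libraries, against 0.271, 0.223 and 0.255 CPM in genipin libraries (log2 fold change 5.94 ± 0.22, adjusted p = 6.52e-16). Nos2, the inducible nitric oxide synthase, had 20.2, 21.8 and 24.3 CPM in genipin+NAC libraries, against 0.58, 0.536 and 0.511 CPM in genipin libraries (log2 fold change 5.34 ± 0.14, adjusted p = 3.34e-18). Groups that do not overlap were a condition of the naming rule for the largest rises, and 70.3% of all genes met it. A further 11 genes of the 15 largest rises by the naming rule had log2 fold changes of 3.68 to 5.44. They include Plcxd1, Spock2, a secreted proteoglycan, Adcy6, an adenylyl cyclase, Rab34, Selenbp1, the endoplasmic reticulum protein Rcn3 and Bst1, an ADP-ribosyl cyclase. H2-Eb1, an MHC class II beta chain, was also among them, with 16.4, 13.6 and 15.5 CPM in genipin+NAC libraries, against 0.58, 0.893 and 0.547 CPM in genipin libraries. Exons of Tgm2, Plcxd1, Adcy6, St6gal1, Rcn3 and Bst1 overlap a gene on the opposite strand, and the sources used here do not say whether counting used the strand. The same holds for Ahr, Bak1, Bcl2, Bhlhe40, Bnip3, Cd160, Cdkn1a, Ciita, Cish, Ctsw, Dnajb9, Dusp5, Eomes, Erap1, Fbxl5, Fdft1, Gnl3, Gpr55, Gzmf, H2-T22, Hif1a, Hspa1a, Il4ra, Kif20a, Lamp1, Maf, Me1, Mt2, Mxi1, Ncf1, Ndrg1, Nop56, Plcg1, Plk1, Prdx5, Ptpn6, Rora, Scap, Slc6a9, Srebf1, Tigar, Tk1, Tnfrsf18, Txnip, Ucp2, Uqcrc2, Xcl1, mt-Co1 and mt-Nd6 among the other genes named here. Exons of Bax, Cd74, Fdps, Gbp8, Gnl3, Hif1a, Hspa8, Ifng, Itga1, Itgam, Jak3, Nop56, Rtp4, Spp1, Srebf1 and mt-Nd4 share bases with a gene on their own strand. Values of all these genes may hold reads of their neighbours.

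Fewer genes fell than rose by at least 2-fold. Csf1, the macrophage growth factor, had 0.904, 1.33 and 0.686 CPM in genipin+NAC libraries, against 17.1, 15 and 17.8 CPM in genipin libraries (log2 fold change -4.12 ± 0.17, adjusted p = 5.9e-15). Klra5, a Ly49 lectin receptor, had 1.51, 1.16 and 1.34 CPM in genipin+NAC libraries, against 20.4, 20.5 and 20.1 CPM in genipin libraries, and Dsc2, the adhesion protein desmocollin 2, had 6.16, 4.72 and 5.33 CPM in genipin+NAC libraries, against 58.2, 55 and 54.4 CPM in genipin libraries. In all 3 genes, genipin+NAC libraries lay below vehicle libraries as well as below genipin libraries, where the ranges were 2.03 to 3.17 CPM for Csf1, 2.07 to 2.36 CPM for Klra5 and 6.42 to 7.8 CPM for Dsc2. Nrgn, neurogranin, a calmodulin-binding protein, had 6.33, 5.87 and 7.39 CPM in genipin+NAC libraries, against 52.6, 55.5 and 57.9 CPM in genipin libraries (log2 fold change -3.07 ± 0.08, adjusted p = 7.74e-19). Lower too were the protease genes Gzma and Mcpt8, the receptors Ccr2, Fcer1g and Gpr55, the adhesion chain Itgae, the cell cycle inhibitor Cdkn2a, the chemokine Ccl4, Lrp11 and Ifit3, all with log2 fold changes between -3.58 and -2.34. Among genes with a mean of at least 5 CPM over the 6 libraries, which the naming rule asks for, Pagr1a had the largest fitted fall (-4.27 ± 0.86), with 0.0861, 0.343 and 1.24 CPM in genipin+NAC libraries, against 9.2, 12.1 and 14.5 CPM in genipin libraries, but it varied widely within the vehicle group, with 0.718, 30.8 and 8.14 CPM. That gene shares exons with Pagr1b and Gm42742, so its value is uncertain, and it was -2.50 with effective length offsets, -4.89 with limma-voom and -5.77 without genipin+NAC replicate 3.

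Most genes listed as HIF targets rose, in a list that also holds HIF subunits and regulators of HIF. Of the HIF target list, 26 of 30 tested members were higher and 3 lower, with 19 of them at least 2-fold higher and 1 at least 2-fold lower, and the median log2 fold change was 1.58. Glycolysis moved the same way, where 22 of 24 tested members were higher and 1 lower, with 13 of them at least 2-fold higher and 0 at least 2-fold lower, and the median was 1.11. For comparison, 10.5% of all genes were at least 2-fold higher.

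In the oxygen-sensing group, Egln3, a HIF prolyl hydroxylase that HIF itself induces, had 447, 461 and 457 CPM in genipin+NAC libraries, against 43.9, 43.8 and 48.6 CPM in genipin libraries. The step was 10-fold (log2 fold change 3.32 ± 0.04, adjusted p = 4.73e-24), and every genipin+NAC library also stood above the 3 vehicle libraries, which had 140 to 147 CPM. Of the 7 tested members of this group, 5 were higher and 1 lower. Hif1a, which encodes HIF-1 alpha, was higher (log2 fold change 1.07), while Epas1, which encodes HIF-2 alpha, fell (log2 fold change -1.48 ± 0.09, adjusted p = 1.99e-12). Hif1an, the asparagine hydroxylase that inhibits HIF, was not called at 55.9 ± 1.03 CPM with genipin and NAC and 57.6 ± 1.17 CPM with genipin (SD, n = 3 each; adjusted p = 0.343).

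All 6 mitochondrial members rose. Bnip3, a mitophagy receptor, had 560, 522 and 519 CPM in genipin+NAC libraries, against 80.5, 80.1 and 76.8 CPM in genipin libraries, a 6.75-fold difference. Pdk1, the kinase that shuts pyruvate dehydrogenase, averaged 285 ± 14.8 CPM with genipin and NAC and 78.2 ± 0.859 CPM with genipin (SD, n = 3 each; log2 fold change 1.87 ± 0.04, adjusted p = 1.65e-20). Mgarp, a mitochondrial protein named for its glutamic acid-rich sequence, had 22.9, 26.3 and 27.3 CPM in genipin+NAC libraries, against 1.28, 1.56 and 1.35 CPM in genipin libraries. Levels of these genes with both compounds exceeded those with vehicle, by 1.04 for Bnip3, 0.87 for Pdk1 and 1.04 for Mgarp on the log2 scale.

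Among secreted and surface products, Vegfa, the endothelial growth factor, had 90.7, 88.8 and 90.9 CPM in genipin+NAC libraries, against 8.16, 7.81 and 7.04 CPM in genipin libraries (log2 fold change 3.56 ± 0.06, adjusted p = 5.45e-22). Ero1l, the oxidase that forms disulfides in the endoplasmic reticulum, had 1851, 1675 and 1679 CPM in genipin+NAC libraries, against 220, 213 and 205 CPM in genipin libraries. P4ha2, a catalytic subunit of the collagen prolyl hydroxylase, had 23.9, 26.2 and 26 CPM in genipin+NAC libraries, against 1.12, 1.12 and 1.46 CPM in genipin libraries, a 20.4-fold difference. Plod1 and Angptl4 went against the list, with -0.35 ± 0.09 and -0.40 ± 0.08. The 7 transcription and signalling members all rose, among them Ndrg1 with 315, 328 and 329 CPM in genipin+NAC libraries, against 56.6, 53 and 56.6 CPM in genipin libraries, and the MYC antagonist Mxi1 with 174 ± 5.13 CPM with genipin and NAC and 50.8 ± 3.94 CPM with genipin (SD, n = 3 each).

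In glycolysis, all 11 upper-step genes and 8 of 9 lower-step genes rose. Pgk1, phosphoglycerate kinase, had 3899, 3947 and 3988 CPM in genipin+NAC libraries, against 910, 908 and 911 CPM in genipin libraries (log2 fold change 2.12 ± 0.02, adjusted p = 4.73e-24). The step was 4.34-fold, and vehicle libraries held 3420 to 3553 CPM. Aldoc, aldolase C, had 291, 325 and 319 CPM in genipin+NAC libraries, against 32.8, 36.9 and 36.1 CPM in genipin libraries. Slc2a3, the glucose transporter GLUT3, rose 4.22-fold and Slc16a3, the lactate exporter MCT4, 3.92-fold, while Slc16a1, the lactate transporter MCT1, fell (-0.20 ± 0.04). Eno3, the muscle enolase, was not called (0.10 ± 0.06, adjusted p = 0.145). Slc2a3 stood 1.74 above vehicle on the log2 scale with both compounds, against -0.34 with genipin and 0.10 with NAC.

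Upstream windows of members of both lists were searched for ACGTG, the core of the hypoxia response element, on both strands, in windows from 250 bases before to 50 bases after each start in the RefSeq table for GRCm38.p6. The core was found in 16 of 28 windows of HIF targets (57.1%) and in 17 of 35 windows of glycolysis genes (48.6%), against 19.6% of all 32851 windows. Those are windows of 27025 genes, which include genes not expressed here, and no share over expressed genes alone was taken. Genes with several starts have several windows, and 22 HIF targets and 23 glycolysis genes matched the table. The 250 upstream bases of 2 strong risers from each list are shown, with each core in capitals (CACGT where it lies on the other strand). They were picked among called members with a core in those bases, so each window shown has a core by choice. Aldoc, a stronger riser than Pgk1 (log2 fold changes 3.14 and 2.12), had none there and was passed over. P4ha2 is from chr11:54100674-54100923 on the plus strand, Mgarp from chr3:51396548-51396797 on the minus strand, Pgk1 from chrX:106186850-106187099 on the plus strand and Pfkfb3 from chr2:11553930-11554179 on the minus strand.
P4ha2: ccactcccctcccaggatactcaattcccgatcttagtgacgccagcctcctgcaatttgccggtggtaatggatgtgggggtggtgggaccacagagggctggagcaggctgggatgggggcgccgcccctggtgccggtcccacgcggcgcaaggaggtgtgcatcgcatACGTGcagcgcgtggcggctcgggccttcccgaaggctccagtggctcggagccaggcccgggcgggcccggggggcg
Mgarp: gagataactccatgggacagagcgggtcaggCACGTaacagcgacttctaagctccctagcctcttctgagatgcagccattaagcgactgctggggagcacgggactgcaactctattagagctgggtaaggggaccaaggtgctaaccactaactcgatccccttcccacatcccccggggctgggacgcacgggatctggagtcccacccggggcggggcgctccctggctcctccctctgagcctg
Pgk1: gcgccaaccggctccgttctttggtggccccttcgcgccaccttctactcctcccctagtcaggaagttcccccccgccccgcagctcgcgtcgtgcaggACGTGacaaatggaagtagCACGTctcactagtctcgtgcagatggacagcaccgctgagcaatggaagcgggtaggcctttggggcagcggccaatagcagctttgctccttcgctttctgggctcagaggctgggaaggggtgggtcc
Pfkfb3: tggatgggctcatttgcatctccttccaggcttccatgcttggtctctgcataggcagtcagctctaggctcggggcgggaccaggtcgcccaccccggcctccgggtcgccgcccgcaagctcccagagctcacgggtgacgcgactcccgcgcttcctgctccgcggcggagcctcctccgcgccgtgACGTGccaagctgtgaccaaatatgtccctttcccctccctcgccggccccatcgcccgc
Within the 250 bases shown, Pgk1 holds 2 cores and the others 1 each. A match describes the letters only.

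**Figure D2:**
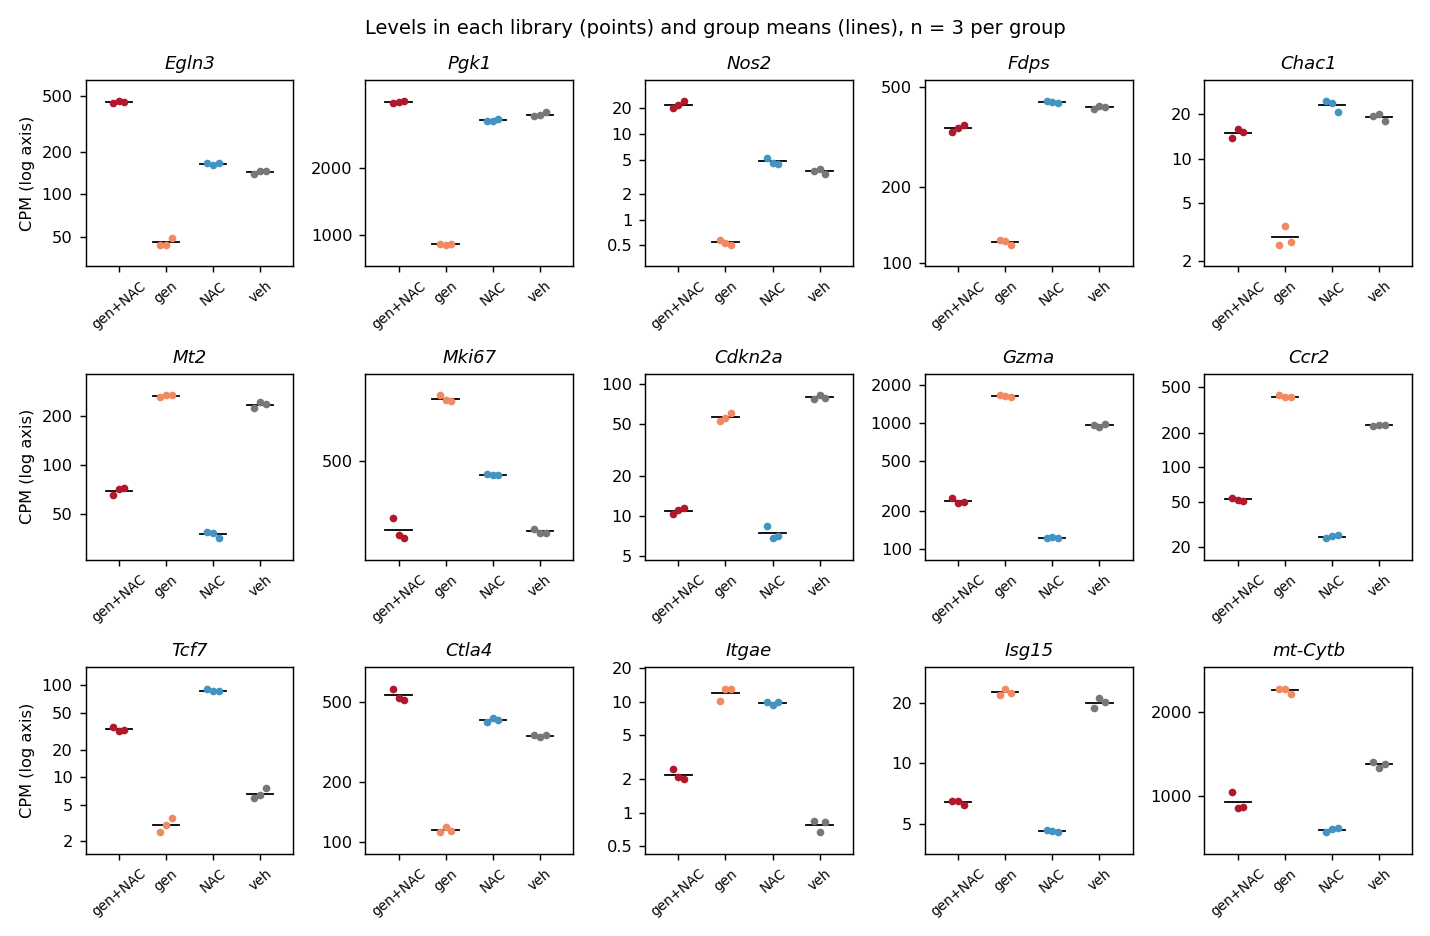
CPM on log axes for 15 genes in each library (points) with the group mean (line), n = 3 per group, for genipin + NAC, genipin, NAC and vehicle. Egln3, Nos2, Tcf7 and Ctla4 are higher with genipin + NAC than with genipin in all 3 libraries, Mt2, Mki67, Cdkn2a, Gzma, Ccr2 and Isg15 are lower, and Itgae is high with genipin or NAC alone and low with both.

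Lipid synthesis genes rose, mostly without reaching vehicle. Of the cholesterol list, 23 of 29 tested members were higher and 3 lower, with 9 of them at least 2-fold higher and 0 at least 2-fold lower, and the median log2 fold change was 0.70. All 8 genes of the mevalonate pathway were higher, with a median of 1.29. Fdps, farnesyl diphosphate synthase, had 331, 344 and 352 CPM in genipin+NAC libraries, against 123, 122 and 118 CPM in genipin libraries (adjusted p = 3.62e-20). The step was 2.83-fold. Acat2, the acetyl-CoA acetyltransferase of the first step, and Fdft1, squalene synthase, rose 2.93-fold and 2.52-fold. Insig1, the sterol sensor that retains SREBP, averaged 157 ± 0.384 CPM with genipin and NAC and 69.1 ± 0.904 CPM with genipin (SD, n = 3 each). Against vehicle, Fdps was at -0.28 with both compounds, -1.78 with genipin and 0.07 with NAC on the log2 scale. With both compounds, 22 of 29 members were lower than vehicle and 2 higher, against 28.9% and 28.5% of all genes.

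The transcription factors Srebf1 and Srebf2, which drive these genes, were not called (-0.03 ± 0.05 and 0.09 ± 0.04). Scap, the SREBP escort protein, and Ebp, a sterol isomerase, fell, with log2 fold changes of -0.60 ± 0.05 and -0.42 ± 0.05. In fatty acid synthesis, 12 of 17 tested members were higher and 4 lower, with a median of 0.54. Scd1, the stearoyl-CoA desaturase, had 109, 105 and 109 CPM in genipin+NAC libraries, against 41, 42.2 and 42.8 CPM in genipin libraries (log2 fold change 1.36 ± 0.04, adjusted p = 6.51e-18), and Me1, the malic enzyme that supplies NADPH, averaged 10.2 ± 0.394 CPM with genipin and NAC and 1.94 ± 0.317 CPM with genipin (SD, n = 3 each). Fasn, the fatty acid synthase, fell (-0.46 ± 0.04). Of 5 cholesterol efflux genes, Abca1 (-1.95 ± 0.26) and Abcg1 (-0.62 ± 0.09) fell and none rose.

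Genes of the ATF4 response, which handles amino acid shortage and stress, were also higher. Of this list, 25 of 33 tested members were higher and 6 lower, with 14 of them at least 2-fold higher and 0 at least 2-fold lower, and the median was 0.62. All 7 transcription factors and 7 of 8 feedback genes rose. This list shares members with the HIF target list, Ddit4 and Vegfa among them, so the counts of those lists are not independent. Chac1, which degrades glutathione, had 13.9, 15.9 and 15.2 CPM in genipin+NAC libraries, against 2.59, 3.48 and 2.7 CPM in genipin libraries (log2 fold change 2.37 ± 0.11, adjusted p = 4.95e-14). Trib3, a pseudokinase that restrains ATF4 and AKT, had 30.5, 32.6 and 32.1 CPM in genipin+NAC libraries, against 7.08, 7.1 and 7.95 CPM in genipin libraries. Ddit4, which restrains mTORC1, had 300, 315 and 317 CPM in genipin+NAC libraries, against 78.7, 82.2 and 88.4 CPM in genipin libraries. In each the genipin libraries were the lowest of the 12, and Chac1 with both compounds was below vehicle (-0.36) while Trib3 was above it (0.66).

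Slc7a11, the cystine importer, was barely expressed, with 0.646, 0.386 and 0.784 CPM in genipin+NAC libraries, against 0.116, 0.134 and 0.219 CPM in genipin libraries (log2 fold change 1.93 ± 0.46, adjusted p = 0.000907). Its partner chain Slc3a2 averaged 242 ± 11.1 CPM with genipin and NAC and 178 ± 1.88 CPM with genipin (SD, n = 3 each). Of 9 amino acid transport genes of the list, 6 rose, Slc6a9 (2.65) and Slc1a4 (0.89) among them, and 3 fell, Slc7a5 (-0.51 ± 0.04), Slc7a1 (-0.56 ± 0.04) and Slc1a5 (-0.30 ± 0.04). Mthfd2, of mitochondrial one-carbon metabolism, was not called (0.08 ± 0.04). The tRNA synthetases did not follow, since 5 of 20 tested members were higher and 10 lower with a median of -0.08. Dars and Sars rose (0.73 ± 0.04 and 0.63 ± 0.03) while Rars and Tars fell (-0.50 ± 0.04 and -0.45 ± 0.04).

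The C/EBP-ATF response element TGATGNAA, searched on both strands, was found in 8 of 35 windows of the ATF4 list (22.9%) and 5 of 12 windows of tRNA synthetases (41.7%), against 3.97% of all windows.

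Glutathione and antioxidant genes were mixed. In the glutathione list 13 of 26 tested members were higher and 8 lower, with a median of 0.27, or 0.0935 when only the genipin+NAC and genipin libraries were fitted. Mgst2 and Gstt2, glutathione transferases, rose (0.80 ± 0.06 and 0.64 ± 0.05), while Gsr, glutathione reductase, and Glrx, glutaredoxin, fell (-0.33 ± 0.04 and -0.33 ± 0.03). Gpx1, the abundant glutathione peroxidase, was not called (0.09 ± 0.05). Of targets of NRF2, the factor that responds to electrophiles, 10 of 24 tested members were higher and 10 lower. Txnip, which binds and inhibits thioredoxin, had 2147, 2090 and 2095 CPM in genipin+NAC libraries, against 639, 663 and 650 CPM in genipin libraries (log2 fold change 1.70 ± 0.03, adjusted p = 1.49e-22). In the other direction, Txnrd1, thioredoxin reductase, averaged 82.4 ± 2.66 CPM with genipin and NAC and 147 ± 1.32 CPM with genipin and Prdx1, a peroxiredoxin, 222 ± 8.85 CPM with genipin and NAC and 360 ± 2.58 CPM with genipin (SD, n = 3 each). Blvrb, biliverdin reductase B, rose 4.82-fold, and Prdx5 and Sod2, which remove peroxide and superoxide in mitochondria, rose by 0.89 ± 0.04 and 0.50 ± 0.04. Ncf1, a subunit of the NADPH oxidase, had 142, 141 and 138 CPM in genipin+NAC libraries, against 60, 60.5 and 64.6 CPM in genipin libraries.

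Of the metallothioneins, which bind zinc and other metals, Mt1 and Mt2 fell and Mt3 was not called (0.05 on the log2 scale). Mt1 had 99.8, 120 and 118 CPM in genipin+NAC libraries, against 287, 299 and 320 CPM in genipin libraries (log2 fold change -1.42 ± 0.05, adjusted p = 8.65e-16). Mt2 had 65.8, 71 and 72.5 CPM in genipin+NAC libraries, against 261, 269 and 269 CPM in genipin libraries (log2 fold change -1.93 ± 0.04, adjusted p = 7.31e-20). Both were lower still with NAC alone. Mt1 averaged 65.3 ± 3.51 CPM with NAC and 262 ± 5.94 CPM with vehicle, and Mt2 averaged 37.6 ± 1.78 CPM with NAC and 235 ± 10.2 CPM with vehicle (SD, n = 3 each). Over the list with zinc transporters, 2 of 17 tested members were higher and 10 lower. The importer Slc39a6 fell (-0.43 ± 0.04), and the transporter Slc30a9 rose (0.66 ± 0.05). The core of the metal response element, TGCNCNC, was present in 12 of 16 windows of the list (75%) and in 51% of all windows. Of iron genes, 3 of 10 tested members were higher and 4 lower. Tfrc, the transferrin receptor, averaged 125 ± 5.06 CPM with genipin and NAC and 300 ± 7.78 CPM with genipin (SD, n = 3 each; log2 fold change -1.27 ± 0.03, adjusted p = 4.91e-18). Fbxl5, which senses iron and degrades IRP2, rose (1.08 ± 0.04).

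Of the endoplasmic reticulum list, 5 of 23 tested members were higher and 18 lower, with a median of -0.29, and 13 of 14 chaperones fell. Calr, calreticulin, averaged 536 ± 16 CPM with genipin and NAC and 923 ± 13.2 CPM with genipin, and Sdf2l1 29.3 ± 2.82 CPM with genipin and NAC and 70.2 ± 1.17 CPM with genipin (SD, n = 3 each). Dnajb9 and Herpud1 rose (0.75 ± 0.09 and 0.47 ± 0.04). In the heat shock list 9 of 19 tested members were higher and 8 lower. Of the HSP70 genes and their cochaperones 6 of 9 were higher and 2 lower, and of the HSP90, HSP60 and small heat shock genes 2 of 8 were higher and 6 lower. The inducible HSP70 genes were nearly silent with genipin: Hspa1a had 2.54, 4.29 and 3.24 CPM in genipin+NAC libraries, against 0.155, 0.0893 and 0.182 CPM in genipin libraries, and Hspa1b averaged 4.83 ± 0.898 CPM with genipin and NAC and 0.795 ± 0.279 CPM with genipin (SD, n = 3 each). The pair is nearly identical in sequence, so the split between them is uncertain. Hsp90aa1 and Hsph1 fell (-0.42 ± 0.04 and -0.65 ± 0.05), and the constitutive Hspa8 was not called (0.01 ± 0.02).

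Cell cycle genes fell as a block. In mitosis, 1 of 29 tested members were higher and 28 lower, with a median of -0.67. In DNA replication, 0 of 31 tested members were higher and 29 lower, with a median of -0.78. At least 2-fold lower were 4 mitosis and 7 replication genes, against 4.08% of all genes. Mki67, the proliferation antigen, had 346, 309 and 304 CPM in genipin+NAC libraries, against 765, 741 and 735 CPM in genipin libraries (log2 fold change -1.23 ± 0.04, adjusted p = 2.28e-17). Kif20a, a cytokinesis kinesin, averaged 57.7 ± 2.2 CPM with genipin and NAC and 141 ± 2.48 CPM with genipin, and Plk1, the polo kinase, 35.6 ± 1.28 CPM with genipin and NAC and 79.1 ± 2.8 CPM with genipin (SD, n = 3 each). Rrm2, the ribonucleotide reductase subunit that limits dNTP supply, had 137, 143 and 143 CPM in genipin+NAC libraries, against 338, 341 and 332 CPM in genipin libraries. Tyms, thymidylate synthase, averaged 24.9 ± 1.63 CPM with genipin and NAC and 78.5 ± 3.26 CPM with genipin (SD, n = 3 each; log2 fold change -1.66 ± 0.05, adjusted p = 8.48e-17). The exceptions were the cytokinesis protein Anln, which rose (0.20 ± 0.06, but -0.04 and not called with effective length offsets), and Pold1 and E2f1, which were not called.

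The cycle genes were also set against vehicle. Mki67 stood at 0.01 against vehicle with both compounds, 1.23 with genipin and 0.53 with NAC on the log2 scale. The mitosis list had a median of -0.07 with both compounds, 0.64 with genipin and 0.73 with NAC, and DNA replication -0.32, 0.48 and 0.14. Pyrimidine synthesis fell with the cycle, with 9 of 10 members lower and none higher. Cad, which starts that pathway, fell (-0.65 ± 0.04), as did Tk1 (-0.94 ± 0.04), and the purine gene Impdh1 rose (0.48 ± 0.03). In ribosome biogenesis, 24 of 27 members fell and 1 rose. Gnl3, nucleostemin, had 33.1, 29.5 and 31.3 CPM in genipin+NAC libraries, against 65.7, 67.5 and 69.5 CPM in genipin libraries (log2 fold change -1.11 ± 0.05, adjusted p = 1.19e-14), and Nop56 and Nolc1 fell (-0.93 ± 0.03 and -0.95 ± 0.03), while Npm1 rose (0.41 ± 0.05). Ribosomal protein genes held 13.9% to 14.2% of counts with genipin and NAC and 11.5% to 11.9% with genipin.

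Cell cycle inhibitors were divided. Cdkn2a, which encodes p16 and p19ARF, had 10.4, 11.1 and 11.4 CPM in genipin+NAC libraries, against 52.6, 54.7 and 60.2 CPM in genipin libraries (log2 fold change -2.34 ± 0.07, adjusted p = 2.38e-17), and its neighbour Cdkn2b fell (-1.32 ± 0.10). NAC libraries had 6.76 to 8.46 CPM of Cdkn2a and vehicle libraries 76.7 to 82.2 CPM. Cdkn1b, p27, averaged 92.5 ± 3.37 CPM with genipin and NAC and 38.9 ± 1.54 CPM with genipin, and Cdkn1a, p21, 402 ± 21.5 CPM with genipin and NAC and 215 ± 4 CPM with genipin (SD, n = 3 each). Of p53 targets, 17 of 26 tested members were higher and 6 lower, with 7 of them at least 2-fold higher and 0 at least 2-fold lower. Fas, the death receptor, had 16.7, 16.6 and 15.5 CPM in genipin+NAC libraries, against 3.44, 3.44 and 3.5 CPM in genipin libraries, and Btg2, an antiproliferative gene, had 127, 128 and 132 CPM in genipin+NAC libraries, against 27.4, 28.9 and 28.3 CPM in genipin libraries. Trp53 itself fell (-0.79 ± 0.05), as did Bax (-0.36 ± 0.05) and Tigar (-0.75 ± 0.07). Of 15 tested BCL2 family genes 6 were higher and 6 lower, and of the 9 death genes among them 4 were higher and 3 lower. Bcl2 rose (0.65 ± 0.03), and of the death genes that oppose it Bbc3, Bmf and Bcl2l11 rose (0.94 ± 0.06, 0.67 ± 0.09 and 0.55 ± 0.05) while Bak1 fell (-0.56 ± 0.04).

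**Figure D3:**
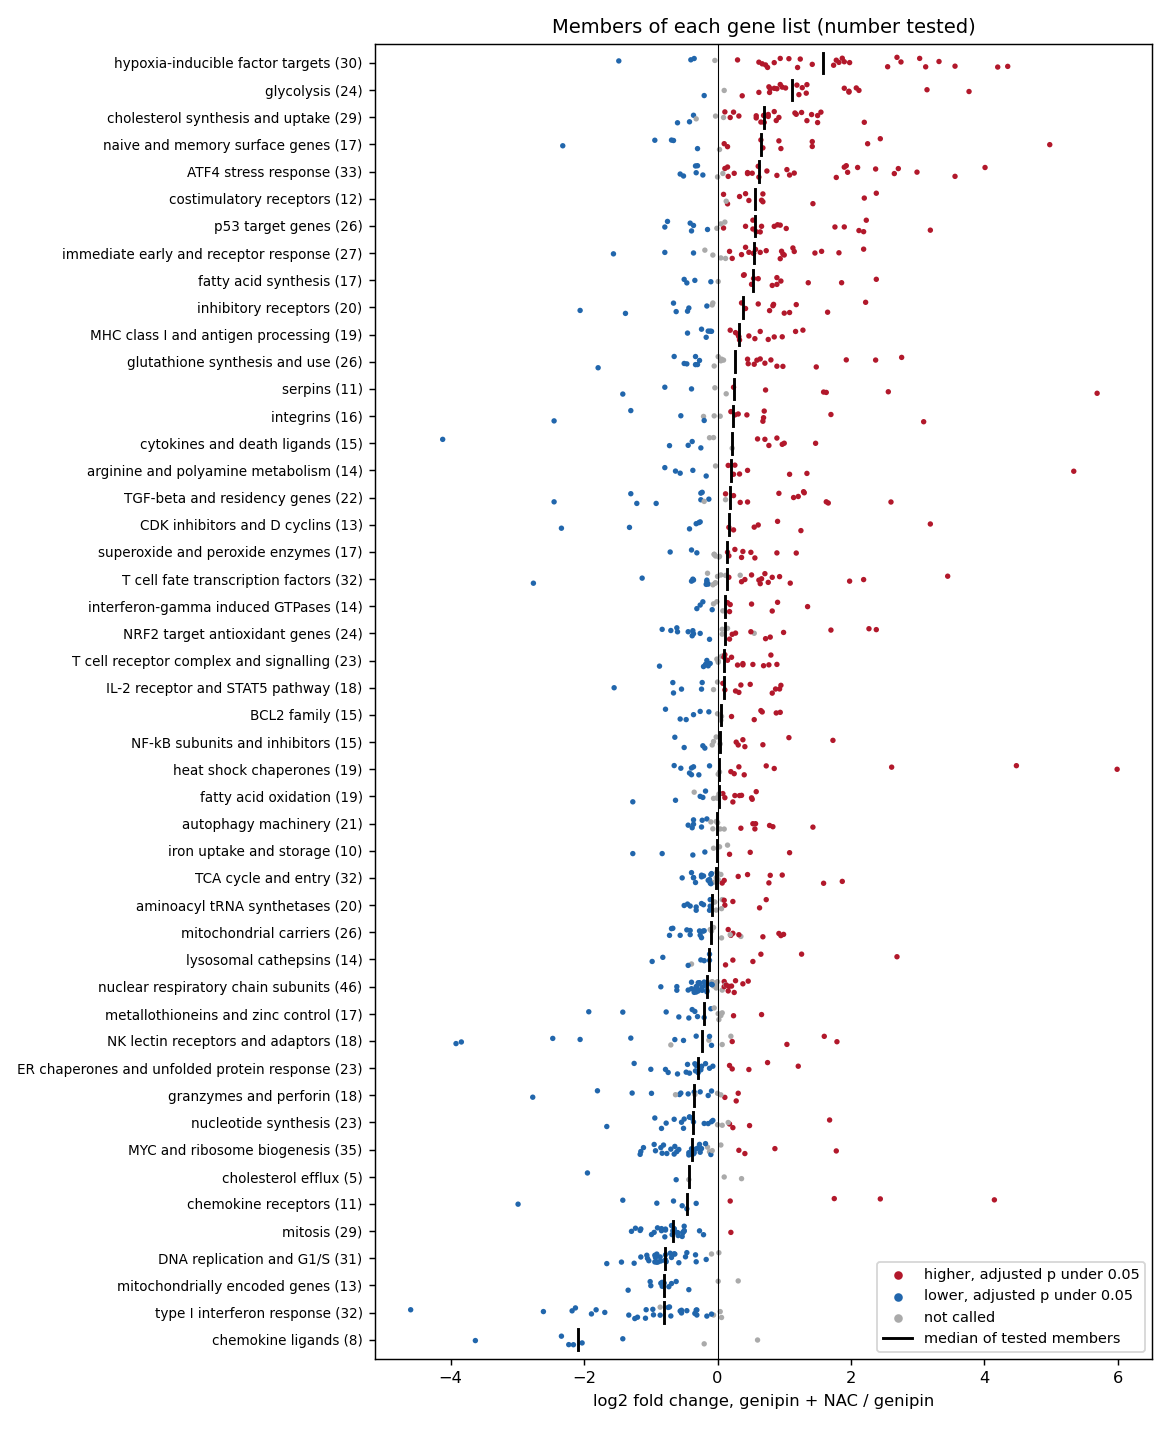
Log2 fold change of genipin + NAC over genipin for the tested members of 48 gene lists (points, red higher and blue lower at adjusted p under 0.05, grey not called), with each list's median as a black line. HIF targets, glycolysis and cholesterol synthesis have the highest medians (1.58, 1.11 and 0.70), chemokine ligands have the lowest (-2.09), and type I interferon, mitochondrially encoded and DNA replication genes have medians close to each other (-0.80, -0.80 and -0.78).

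Among killing genes, granzymes fell and perforin did not. Of 9 granzymes, 7 were lower and none higher. Gzma had 255, 234 and 239 CPM in genipin+NAC libraries, against 1678, 1644 and 1627 CPM in genipin libraries, a 6.8-fold lower level (log2 fold change -2.77 ± 0.03, adjusted p = 5.07e-24). Gzmc had 976, 957 and 967 CPM in genipin+NAC libraries, against 2370, 2336 and 2337 CPM in genipin libraries, and Gzmf averaged 120 ± 1.38 CPM with genipin and NAC and 416 ± 1.48 CPM with genipin (SD, n = 3 each). On the length-scaled deposited TPM, Gzmc was the most abundant of these 3 in both groups, with 1609 to 1662 TPM in genipin+NAC libraries and 4084 to 4217 TPM in genipin libraries, and Gzmf the least, with 190 to 198 TPM and 701 to 711 TPM. Prf1, perforin, averaged 795 ± 32.5 CPM with genipin and NAC and 794 ± 3.46 CPM with genipin (SD, n = 3 each; adjusted p = 0.97). Granule genes around them were mixed, with Ctsw and Cst7 higher (0.31 ± 0.03 and 0.28 ± 0.03) and Lamp1 lower (-0.44 ± 0.03). The granzymes C to G are close paralogs, and reads may be shared among them.

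NK-associated genes fell beside the granzymes. All 6 tested NK markers were lower, and their list summed to 341 to 365 CPM with genipin and NAC and to 1840 to 1880 CPM with genipin, most of it Gzma. Fcer1g, the Fc receptor gamma adaptor, had 14.9, 14.9 and 14.8 CPM in genipin+NAC libraries, against 77.1, 82.2 and 88.2 CPM in genipin libraries. Tyrobp, the DAP12 adaptor, averaged 3.3 ± 0.315 CPM with genipin and NAC and 8.14 ± 0.531 CPM with genipin (SD, n = 3 each), and Ncr1, NKp46, had 0.172, 0.172 and 0.098 CPM in genipin+NAC libraries, against 2.36, 1.61 and 2.33 CPM in genipin libraries. Among lectin receptors 8 of 15 fell and 3 rose, with Klrg1 at 3.78 ± 0.444 CPM with genipin and NAC and 15.7 ± 0.555 CPM with genipin and Klrc1, NKG2A, at 43.6 ± 4.68 CPM with genipin and NAC and 67.5 ± 3.33 CPM with genipin (SD, n = 3 each). Klra7 rose (1.04 ± 0.18). Taken with their adaptors, these receptors had 4 of 18 tested members higher and 10 lower. With a filter at 5 CPM, 7 members remained, 1 higher and 4 lower. With only the genipin+NAC and genipin libraries fitted, 4 of 18 were higher and 7 lower. CD8 T cells can express many of these genes. The part of any NK cells in these values was not tested.

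All 6 called chemokine ligands fell, each at least 2-fold, of 8 tested. Ccl5 had 113, 115 and 117 CPM in genipin+NAC libraries, against 298, 311 and 316 CPM in genipin libraries (log2 fold change -1.42 ± 0.03, adjusted p = 4e-19). Ccl4 had 11.5, 12.1 and 11.1 CPM in genipin+NAC libraries, against 58.4, 55.5 and 61.8 CPM in genipin libraries, and Ccl3 averaged 6.84 ± 0.859 CPM with genipin and NAC and 27.8 ± 1.38 CPM with genipin (SD, n = 3 each). Ccl9 had 0.129, 0.343 and 0.196 CPM in genipin+NAC libraries, against 3.13, 2.41 and 2.77 CPM in genipin libraries. Xcl1, which attracts cross-presenting dendritic cells, was not called (-0.20 ± 0.13). In Ccl5, Ccl4, Ccl3 and Ccl9 the groups did not overlap, which was true of 70.3% of all genes. With a filter at 5 CPM, 3 of the ligands remained, and all 3 were lower. With effective length offsets 5 were lower and 1 higher, and the median was -1.79 in place of -2.09.

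Receptors went both ways. Ccr2 had 54.3, 52.1 and 50.9 CPM in genipin+NAC libraries, against 428, 410 and 409 CPM in genipin libraries, 7.94-fold lower (log2 fold change -2.99 ± 0.03, adjusted p = 4.73e-24). Cxcr3 fell less (-0.66 ± 0.07). In contrast, Ccr7, which guides T cells to lymph nodes, had 93.9, 107 and 105 CPM in genipin+NAC libraries, against 19.7, 19.7 and 17 CPM in genipin libraries (log2 fold change 2.44 ± 0.05, adjusted p = 1.92e-19), and Cxcr4 averaged 20.9 ± 1.22 CPM with genipin and NAC and 6.17 ± 0.64 CPM with genipin (SD, n = 3 each). S1pr1, the egress receptor, rose (1.42 ± 0.06). Vehicle libraries had 109 to 113 CPM of Ccr7, so its level with both compounds came close to vehicle.

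Of 12 tested genes of cytokine receptors and survival, 9 were higher and 3 lower. Il7r had 171, 151 and 159 CPM in genipin+NAC libraries, against 84, 84.2 and 81.2 CPM in genipin libraries (log2 fold change 0.95 ± 0.04, adjusted p = 1.23e-14). Of the IL-2 pathway, Il2rb averaged 1784 ± 78.8 CPM with genipin and NAC and 2601 ± 27.2 CPM with genipin, Pim2, a STAT5-induced kinase, 85.9 ± 7.22 CPM with genipin and NAC and 252 ± 5 CPM with genipin, and Cish 378 ± 22.2 CPM with genipin and NAC and 603 ± 12.8 CPM with genipin (SD, n = 3 each). All 3 of those fell, whereas Il4ra, Jak3 and Socs3 rose (0.87 ± 0.03, 0.82 ± 0.05 and 0.93 ± 0.06). Ifng averaged 134 ± 3.85 CPM with genipin and NAC and 66.7 ± 0.716 CPM with genipin (SD, n = 3 each; log2 fold change 1.00 ± 0.04, adjusted p = 6.84e-16), and Spp1, osteopontin, and Lif rose (0.71 ± 0.03 and 0.97 ± 0.04). Tnf and Il10 fell (-0.44 ± 0.05 and -0.72 ± 0.09).

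Of the transcription factors, Tcf7, which encodes TCF-1 and marks naive and memory cells, changed most. It had 35, 31.9 and 33.1 CPM in genipin+NAC libraries, against 2.51, 2.99 and 3.57 CPM in genipin libraries, and 91.9, 86 and 86.4 CPM in NAC libraries and 5.87, 6.34 and 7.61 CPM in vehicle libraries (log2 fold change 3.45 ± 0.10, adjusted p = 1.03e-17). Genipin+NAC libraries thus lay between vehicle and NAC alone. In the naive and memory group 8 of 13 factors rose and 4 fell, and Eomes was among the fallers (-0.37 ± 0.04). Of 10 effector factors 3 rose and 3 fell: Irf4 and Runx3 were not called, Id2 and Batf fell (-0.39 ± 0.03 and -0.36 ± 0.05), and Bhlhe40 rose (0.62 ± 0.03). Nr4a1 and Rora rose 4.56-fold and 3.94-fold. Maf (-2.76 ± 0.26) and Ahr, the aryl hydrocarbon receptor (-1.13 ± 0.12), fell.

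Costimulatory receptors rose and inhibitory ones were mixed. Of the first, 11 of 12 tested members were higher and 0 lower, with a median of 0.57. Tnfrsf9, which encodes 4-1BB, had 1256, 1326 and 1334 CPM in genipin+NAC libraries, against 281, 285 and 284 CPM in genipin libraries (log2 fold change 2.20 ± 0.03, adjusted p = 2.09e-23). Tnfrsf4, OX40, had 67.6, 81 and 75.4 CPM in genipin+NAC libraries, against 13.7, 15.6 and 14 CPM in genipin libraries, and Tnfrsf18, GITR, rose 2.7-fold. Of inhibitory receptors, 11 of 20 tested members were higher and 7 lower. Ctla4 had 579, 519 and 513 CPM in genipin+NAC libraries, against 112, 120 and 113 CPM in genipin libraries (log2 fold change 2.22 ± 0.04, adjusted p = 7.04e-21), and Pdcd1, PD-1, averaged 252 ± 8.79 CPM with genipin and NAC and 119 ± 2.25 CPM with genipin, and 44.2 ± 1.22 CPM with NAC and 70.5 ± 1.21 CPM with vehicle (SD, n = 3 each). Pdcd1 was higher with both compounds than in any other group. Lag3 rose (0.78 ± 0.04), Cd160 and Cd244a fell (-1.38 ± 0.06 and -0.66 ± 0.04), and Havcr2, TIM-3, and Tigit were not called (-0.07 ± 0.04 and -0.08 ± 0.04).

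Early response genes of the antigen receptor rose, where 20 of 27 tested members were higher and 3 lower, with a median of 0.54. Egr1 had 968, 1028 and 1050 CPM in genipin+NAC libraries, against 287, 284 and 290 CPM in genipin libraries (log2 fold change 1.82 ± 0.03, adjusted p = 1.93e-21). Dusp5, a phosphatase that limits ERK, averaged 425 ± 18.3 CPM with genipin and NAC and 144 ± 1.77 CPM with genipin (SD, n = 3 each), and its relative Dusp2 and the AP-1 factor Fosl2 rose (1.15 ± 0.04 and 1.13 ± 0.03). Spry2 and Fosb fell (-1.56 ± 0.06 and -0.79 ± 0.14), and Egr3 was not called (-0.07 ± 0.07). In the receptor complex, Cd8a averaged 672 ± 8.05 CPM with genipin and NAC and 393 ± 3.62 CPM with genipin (SD, n = 3 each), Cd3g and Plcg1 rose (0.38 ± 0.03 and 0.89 ± 0.03), and Ptpn6, SHP-1, fell (-0.87 ± 0.03). Tnfaip3, the NF-kB inhibitor A20, rose 3.31-fold, and Traf1 rose (1.07 ± 0.03), while Nfkbia fell (-0.50 ± 0.05).

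Itgae, the alpha E integrin CD103 that TGF-beta induces in resident cells, had 2.45, 2.1 and 2.03 CPM in genipin+NAC libraries, against 10, 12.9 and 13 CPM in genipin libraries, and 9.84, 9.41 and 9.98 CPM in NAC libraries and 0.845, 0.668 and 0.822 CPM in vehicle libraries. It was thus higher with either compound alone than with both (log2 fold change -2.45 ± 0.13, adjusted p = 3.54e-13), and lowest with vehicle. Itga1 and Tgfbr1 also fell (-1.30 ± 0.09 and -1.21 ± 0.07), while Cd69 and Cdh1, the CD103 ligand E-cadherin, rose (1.30 ± 0.03 and 1.66 ± 0.06), so residency genes did not move as 1 group. Itgam, the integrin alpha M chain CD11b, had 40.9, 40 and 38.3 CPM in genipin+NAC libraries, against 4.79, 4.24 and 4.92 CPM in genipin libraries. Cd68, a lysosomal protein of macrophages and other cells, had 62.5, 73.1 and 74 CPM in genipin+NAC libraries, against 11.2, 11 and 10.5 CPM in genipin libraries. These last 2 make up most of the macrophage marker sum, 106 to 116 CPM with genipin and NAC and 18.3 to 19.2 CPM with genipin, while Csf1r, Adgre1 and Lyz2 had 0 to 3 counts per library. Of the 3 tested members of that list, 2 were higher and 1 lower. The lower member, Cd14, had 2.41, 2.31 and 2.06 CPM in genipin+NAC libraries, against 3.17, 2.9 and 3.32 CPM in genipin libraries.

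Several genes known from other blood cells moved as well. Kit, the stem cell factor receptor of mast and progenitor cells, had 237, 239 and 234 CPM in genipin+NAC libraries, against 34.1, 34.2 and 33.4 CPM in genipin libraries (log2 fold change 2.80 ± 0.04, adjusted p = 1.48e-23), and vehicle libraries had 14.4 to 16 CPM. Mcpt8, a basophil protease, was lower, with 1.68, 1.03 and 1.27 CPM in genipin+NAC libraries, against 16.3, 13.4 and 17.7 CPM in genipin libraries. The class II beta chain H2-Ab1 averaged 59.2 ± 4.88 CPM with genipin and NAC and 5.17 ± 0.49 CPM with genipin (SD, n = 3 each), but its partner H2-Aa was not called (0.59 ± 0.64). Ighm, the IgM heavy chain, had 154, 152 and 152 CPM in genipin+NAC libraries, against 58.2, 62.9 and 57.4 CPM in genipin libraries. The B cell list summed to 160 to 161 CPM with genipin and NAC and 60.7 to 65.3 CPM with genipin, and 3 of its 4 tested members were higher, Ighm, Cd79b (2.13 ± 0.19) and Ighd (2.81 ± 0.60). The dendritic list summed to 220 to 243 CPM with genipin and NAC, most of it Ccr7 and H2-Ab1, and 63.8 to 69.3 CPM with genipin. Of its 10 tested members, 6 were higher and 2 lower, Ciita, the class II transactivator, and Cd74, the invariant chain (-1.29 ± 0.43 and -0.64 ± 0.23). Ciita lost its call without genipin replicate 1 (-1.08) or genipin+NAC replicate 1 (-1.01) and was -1.96 without genipin+NAC replicate 3, and Cd74 lost its call without genipin replicate 3 (-0.49) or genipin+NAC replicate 3 (-0.51). Ighd, at 0 to 5 counts in the genipin libraries, was 4.56 without genipin replicate 1 and 2.20 without genipin replicate 3. The neutrophil and mast cell list, most of it Kit, summed to 252 to 256 CPM with genipin and NAC and 62.9 to 63.9 CPM with genipin. The part of other cells in these values was not tested.

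Type I interferon response genes fell together. Of this list, 0 of 32 tested members were higher and 28 lower, with 0 of them at least 2-fold higher and 12 at least 2-fold lower, against 34.3% lower and 4.08% at least 2-fold lower over all genes, and the median was -0.80. Isg15, a ubiquitin-like modifier, had 6.5, 6.47 and 6.21 CPM in genipin+NAC libraries, against 21.9, 23.6 and 22.4 CPM in genipin libraries (log2 fold change -1.82 ± 0.07, adjusted p = 3.85e-15). Rtp4, a chaperone of receptors, had 8.57, 8.92 and 8.86 CPM in genipin+NAC libraries, against 36.6, 40.1 and 38.4 CPM in genipin libraries, and Mx1, an antiviral GTPase, averaged 43.9 ± 1.97 CPM with genipin and NAC and 101 ± 1.99 CPM with genipin (SD, n = 3 each). Ifit3, which binds viral RNA complexes, had 1.59, 1.54 and 1.63 CPM in genipin+NAC libraries, against 9.98, 9.56 and 9.7 CPM in genipin libraries and shares near-identical sequence with Ifit3b, so their values are uncertain singly. Bst2, tetherin, was not called (-0.06 ± 0.04). Against vehicle the list median was -0.69 with both compounds, 0.01 with genipin and -0.99 with NAC.

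The interferon-stimulated response element, searched on both strands, was found in 13 of 23 windows of 20 matched members (56.5%) and 3.44% of all windows. The 250 upstream bases of the 2 near-identical genes are shown, with the element in capitals, for Ifit3 at chr19:34583279-34583528 and Ifit3b at chr19:34607707-34607956, both on the plus strand.
Ifit3: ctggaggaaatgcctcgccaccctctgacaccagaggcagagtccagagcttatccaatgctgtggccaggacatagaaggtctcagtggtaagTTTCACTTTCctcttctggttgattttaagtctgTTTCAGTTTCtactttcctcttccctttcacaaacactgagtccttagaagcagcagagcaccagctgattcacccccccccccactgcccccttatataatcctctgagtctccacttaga
Ifit3b: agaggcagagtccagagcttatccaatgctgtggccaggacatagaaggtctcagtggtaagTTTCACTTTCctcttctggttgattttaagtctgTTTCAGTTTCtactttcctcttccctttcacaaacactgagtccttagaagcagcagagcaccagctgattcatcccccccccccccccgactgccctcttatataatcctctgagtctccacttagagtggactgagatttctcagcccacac
Both windows hold 2 copies of the element, and members without it in those bases could not be picked for showing. Pfkfb3 and Ifit3b, whose values are not given, were added to the sequences after values were seen.

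Of the GTPases that interferon gamma induces, 7 of 14 tested members were higher and 4 lower, beside 35.0% and 34.3% of all genes, and the median was 0.11. Members that moved include Iigp1 and Gbp8, which were higher (1.35 ± 0.07 and 0.90 ± 0.05), and Gbp3, which was lower (-0.31 ± 0.05). All 9 class I presentation genes rose, among them H2-Q7 with 1146, 1242 and 1264 CPM in genipin+NAC libraries, against 495, 497 and 517 CPM in genipin libraries and H2-T22 with 1.17 ± 0.03, while processing genes split with 4 higher and 6 lower, as with Erap1 (-0.45 ± 0.04) and Psmb10 (-0.24 ± 0.05). The H2-Q genes are close paralogs. Among serpins, Serpinb6b and Serpinb9, which protect lymphocytes from granule proteases, rose (1.63 ± 0.03 and 0.72 ± 0.04), and Serpina3g fell (-1.42 ± 0.06).

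Mitochondrially encoded transcripts fell, where 0 of 13 tested members were higher and 11 lower and the median was -0.80. mt-Cytb, of complex III, had 1030, 906 and 911 CPM in genipin+NAC libraries, against 2429, 2432 and 2337 CPM in genipin libraries (log2 fold change -1.34 ± 0.04, adjusted p = 9.42e-18). mt-Nd4, of complex I, averaged 828 ± 55.2 CPM with genipin and NAC and 1672 ± 63.2 CPM with genipin (SD, n = 3 each). mt-Co1 and mt-Nd6 were not called (0.01 ± 0.03 and 0.31 ± 0.18). Replicate 1, which stood apart, had the highest mt-Cytb of its group, and mitochondrial genes held 1.81% of its counts, against 1.63% in its partners and 2.06% to 2.19% with genipin. Nuclear respiratory subunits changed less, since 10 of 46 tested members were higher and 26 lower, none by 2-fold, and the median was -0.16. Ndufa4 fell (-0.85 ± 0.05) and Uqcrc2 rose (0.46 ± 0.03). In the citrate cycle, 3 of 18 members were higher and 10 lower, where Idh2 rose (1.59 ± 0.07) and Sdhb fell (-0.36 ± 0.03). Of the mitochondrial carriers, 8 of 26 tested members were higher and 12 lower. Apart from Ucp2, Slc25a5, an ADP/ATP exchanger, fell (-0.67 ± 0.03), and the citrate carrier Slc25a1 rose (0.95 ± 0.04).

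Medians against vehicle are given here for 7 lists, chosen after their values were seen. Genipin+NAC libraries lay on the far side of vehicle from genipin for HIF targets, with medians of 0.47 with both compounds, -0.83 with genipin and 0.02 with NAC, and for glycolysis, with 0.42, -0.64 and -0.00. They lay between genipin and vehicle for cholesterol synthesis (-0.28, -1.04 and 0.04) and ATF4 genes (-0.18, -0.59 and 0.53). For ribosome biogenesis and MYC, both compounds gave the lowest median of the 3 (-0.62, -0.09 and -0.08). For mitosis the medians were -0.07 with both compounds, 0.64 with genipin and 0.73 with NAC, and for granzymes and perforin -0.19, 0.10 and -0.84. Against vehicle, 24 of 30 HIF targets were higher with both compounds and 3 lower, while genipin+NAC libraries had 28.5% of all genes higher and 28.9% lower than vehicle. These medians share the vehicle libraries.

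**Figure D4:**
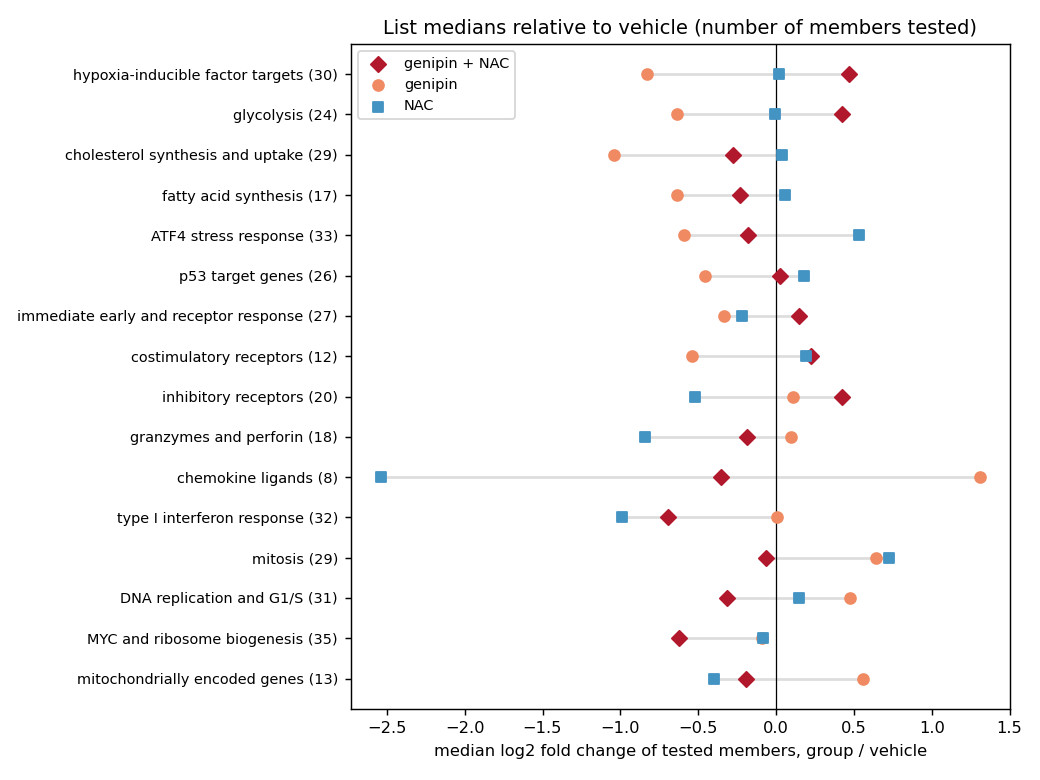
Median log2 fold change against vehicle over the tested members of 16 lists (number tested in brackets) for genipin + NAC (diamonds), genipin (circles) and NAC (squares). HIF targets and glycolysis are above vehicle with genipin + NAC (0.47 and 0.42) and below it with genipin (-0.83 and -0.64).

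Whether NAC acted alike with and without genipin was asked by comparing its effect in genipin-treated cells with its effect in cells without genipin, 2 contrasts that share no library. The log2 fold changes had a Pearson correlation of 0.57 and a Spearman correlation of 0.48 across the 13636 genes, which are not independent. Of the calls with genipin 67.3% were also called without it, and of the calls without genipin (59.7% of genes) 78.1% were also called with it. Among the 6355 genes called in both, 4897 (77.1%) moved the same way, 721 were higher with genipin and lower without, and 737 the reverse. The test of the difference called 7008 genes, 51.4% of those tested, with 3733 (27.4%) more positive with genipin and 3275 (24.0%) more negative. Without normalization factors, which moved the median over all genes to -0.11, these were 2618 and 4806.

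Some genes, chosen after their values were seen, fell or rose with NAC in both settings. Gzma was -2.97 with NAC against vehicle and -2.77 with NAC added to genipin, Ccr2 -3.23 and -2.99, Fcer1g -2.45 and -2.47, Mt2 -2.65 and -1.93, and Tcf7 3.73 and 3.45 on the log2 scale. For these genes the difference was at most 0.72 in size, which was for Mt2, beside a median size of 0.32 over all genes. Over the granzyme list the median was -0.84 with NAC against vehicle and -0.35 with NAC added to genipin, and the difference was positive in 12 of 18 members and negative in 2.

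Oxygen-response genes were called in both directions without genipin. Against vehicle, NAC libraries had 13 of 30 HIF targets higher and 10 lower and 10 of 24 glycolysis genes higher and 11 lower, beside 29.6% higher and 30.0% lower over all genes, with medians of 0.02 and -0.00. For HIF targets, the difference was positive in 25 of 30 members and negative in 1, with a median of 1.72, and for glycolysis in 21 of 24 and 2, with 1.12. Slc2a3 averaged 850 ± 9.41 CPM with genipin and NAC and 202 ± 3.76 CPM with genipin, and 273 ± 2.99 CPM with NAC and 255 ± 1.4 CPM with vehicle (SD, n = 3 each; difference 1.98 ± 0.04, adjusted p = 4.75e-20). Bnip3 rose with genipin present and fell without it (-0.84), a difference of 3.59 ± 0.05, adjusted p = 1.38e-21. Large positive differences were those of Tgm2 (5.99 ± 0.31, adjusted p = 5.2e-13), Nos2 (4.97), Mgarp (4.36) and Plcxd1 (4.26).

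The cycle genes differed in the other sense. All 29 mitosis genes had a negative difference at adjusted p under 0.05, each at least 2-fold, with a median of -1.37, and all 31 replication genes had one too, 13 of them at least 2-fold against 3.14% of all genes, with a median of -0.91. Plk1 was 0.81 with NAC against vehicle and -1.15 with NAC added to genipin, a difference of -1.96 ± 0.06, adjusted p = 2.73e-16. Itgae was 3.63 and -2.45, a difference of -6.09 ± 0.21, adjusted p = 5.71e-16. Asb2, a ubiquitin ligase subunit, had 6.16, 6.09 and 7.29 CPM in genipin+NAC libraries, against 22.3, 20 and 23.3 CPM in genipin libraries, and 8.65, 8.99 and 7.84 CPM in NAC libraries and 2.11, 2 and 1.96 CPM in vehicle libraries (difference -3.81 ± 0.15, adjusted p = 8.22e-15). Hpgds, a prostaglandin D synthase, and Serpina3g also had negative differences (-2.92 and -2.16). In the granzyme and perforin list the difference was positive in 12 of 18 members and negative in 2. NAC lowered Prf1 without genipin (-1.24), and with genipin Prf1 was at 0.00, a difference of 1.24 ± 0.04, adjusted p = 7.18e-16. Cxcr6 was -2.41 without genipin and 0.19 with it, and Egr3 -3.37 and -0.07.

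**Figure D5:**
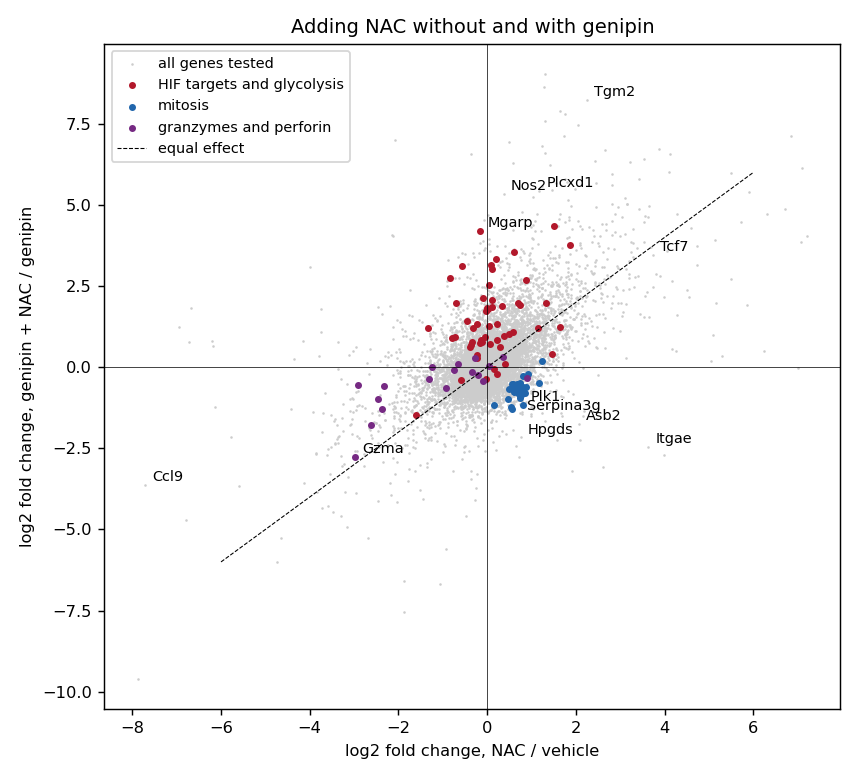
Each point is a gene, with the log2 fold change of NAC over vehicle on the x axis and of genipin + NAC over genipin on the y axis, and the dashed line marks equal effects. HIF and glycolysis genes (red) have median y values of 1.58 and 1.11 and median x values of 0.02 and -0.00, mitosis genes (blue) have medians of -0.67 and 0.73, and granzymes and perforin (purple) -0.35 and -0.84, with Prf1 at 0.00 on the y axis.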

How the data were processed

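RNA of Pmel-1 CD8 T cells was sequenced after ribosomal RNA removal with a stranded total RNA kit, per the labels' protocols. The submitters' processing notes name bcl2fastq, cutadapt 1.18, STAR 2.7.0f, RSEM 1.3.1 and the build mm10. The annotation and the strand setting are not given in the sources used here. The deposited expected counts per gene came from RSEM and were rounded to whole numbers before testing. The deposited TPM, the authors' length-scaled values, were used to compare levels between genes. The deposited FPKM values were not tested. The deposited effective lengths served as offsets in 1 alternative.

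The 12 libraries held 20838894 to 31098648 expected counts. CPM here are edgeR's counts scaled to library totals after TMM normalization. Genes were kept with edgeR's filterByExpr (13636 of 55450) and fitted with edgeR's quasi-likelihood test in edgeR 4.0.16 (R 4.3.3, limma 3.58.1) with 1 mean per group over all 12 libraries, so all groups share 1 estimate of the spread (biological coefficient of variation 0.0393, 8 residual degrees of freedom). P-values were adjusted by Benjamini-Hochberg over all genes tested, and "called" means an adjusted p under 0.05. The ± beside a log2 fold change is its standard error, derived from the fold change and the test statistic, and the ± beside CPM is the SD over 3 libraries. Counting intervals and floors of 3 counts cover counting error only. The steps were tested on simulated data in which far fewer genes changed than were called here. For genipin+NAC against genipin, 13 of 149 calls were false. Of 50 genes changed by 1 on the log2 scale 37 were recovered, and of 50 changed by 0.25, 18. For the difference of the NAC effect, 6 of 117 calls were false, and 31 and 8 of 50 were recovered.

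Genes were named by a rule: Ucp2, the 15 largest rises and 15 largest falls (called, a mean of at least 5 CPM over the 6 libraries, groups not overlapping, no predicted genes, pseudogenes or receptor segments), the 5 largest differences of the NAC effect in each direction, and within each list up to 4 called members per direction by p and 2 not called by mean. A few genes that the rule names are not reported here. The defining markers of other cells and Mt1, Mt2, Slc7a11 and Chac1 were added. Hif1a was reported beside Epas1 after values were seen. The 58 lists, with 982 of 1076 genes tested, and the members were chosen with earlier results of these data known, so their counts are no independent evidence, and no set test was run. Replicate numbers were not used as pairs, since nothing in the labels ties them and same-numbered libraries did not deviate together. DESeq2 1.42.0 and limma-voom were alternatives. Promoter windows came from the RefSeq table for GRCm38.p6.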

Additional observations from a re-analysis of the deposited data

Results flagged for a closer look

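Results in which the effect of NAC with genipin differed from its effect without genipin, by the edgeR quasi-likelihood test of that difference with Benjamini-Hochberg adjustment, are listed here as values. The difference was called for 7008 genes. Among the genes named for it, the difference of the log2 fold changes was 5.99 for Tgm2, 4.97 for Nos2, 4.36 for Mgarp and 4.26 for Plcxd1. It was -6.09 for Itgae, -3.81 for Asb2, -2.92 for Hpgds, -2.16 for Serpina3g and -1.96 for Plk1. Single outlying libraries were not tested in groups of 3.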

How the results depend on the processing

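The count of genes called between genipin+NAC and genipin libraries, 9446, stayed within 1.5 times under the other normalizations, tools, filters and offsets tried, and ranged from 8914 to 9350 when each library was left out in turn. A test against a 1.5-fold change (glmTreat) called 2589 genes, 1670 higher and 919 lower, and 1995 changed at least 2-fold, 1438 higher and 557 lower. For the difference of the NAC effect, 7008 in the main fit, the range without each library was 6641 to 7237, glmTreat called 1431 (932 higher and 499 lower), and 1345 were at least 2-fold (917 higher and 428 lower). With the replicate block the counts were 9373 and 6958. Same-numbered libraries of the 2 groups correlated at 0.0285, -0.0553 and -0.00179 in their deviations, so the numbers are not taken as pairs. Effective length offsets gave 8375 and 5733 calls and ended the calls of Abcg1 (-0.35) and Bmf (0.33). Among named called genes, only Anln changed sign (-0.04 with effective length offsets). Genes close to 0 that were not called changed sign without reaching the threshold. With RLE size factors Hspa8 was -0.00, Irf4 -0.01 and Prf1 -0.01. Without normalization factors Hspa8, Irf4 and Prf1 were -0.02, and Pold1 and mt-Co1 -0.01. With DESeq2 Hspa8 was -0.00, and Irf4 and Prf1 -0.01. Irf4 was -0.00 with limma-voom, -0.00 with no filter and -0.01 with effective length offsets, and Prf1 -0.00 with no filter. With a filter at 5 CPM Runx3 was 0.01 and Srebf1 0.00. The cause was not tested. When each library was left out, Irf4 ranged from -0.02 to 0.04, Pold1 from -0.03 to 0.10, Prf1 from -0.02 to 0.03, mt-Co1 from -0.02 to 0.03, Runx3 from -0.07 to 0.02 and Srebf1 from -0.09 to 0.05. Of the medians of 48 gene lists, 10 changed sign under 1 setting or more, all of them at most 0.216 in size in the main fit. The type I interferon median ranged from -0.839 to -0.527 (lowest size with a filter at 5 CPM), that of mitochondrially encoded genes from -0.885 to -0.679, that of DNA replication from -0.828 to -0.748, that of chemokine ligands from -2.14 to -1.79 and that of the glutathione list from 0.0935 to 0.283, so the order of the first 3 depends on the setting. The library totals limit what low genes can show: 3 counts are 0.0965 to 0.128 CPM in genipin+NAC libraries and 0.110 to 0.135 CPM in genipin libraries.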
